A study of Mus musculus with 4 samples.

Results

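The genes described here are 8 transcription factor genes of the osteoblast lineage, Runx2, Sp7, Dlx3, Dlx5, Dlx6, Msx1, Msx2 and Atf4. They were chosen by name, as the rows whose mouse Ensembl identifier maps to these symbols, out of 41029 genes in the table. All 8 were found. The values come from RNA sequencing of mesenchymal stem/progenitor cells grown from C57BL/6 mouse bone marrow, in 2 libraries labelled Tet2-/- (knockout 1 and knockout 2) and 2 labelled wild type (wild type 1 and wild type 2). Both groups were cultured in MesenCult medium and replated near confluence, and RNA was taken after trypsin treatment. The age and sex of the mice, the design of the deleted allele and whether animals were pooled are not given in the sources used here. Levels are given in FPKM, that is, a gene's reads scaled for its length and for the reads over all genes of the library. The labels do not say that the 2 libraries of a group are separate animals or cultures, so p-values measure only the spread between these samples, which may be technical.

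Bone-forming osteoblasts arise from mesenchymal progenitors under a small set of transcription factors. RUNX2, a Runt-domain factor that binds DNA with its partner CBFB, starts the programme, and SP7 (osterix), a zinc finger factor that acts after RUNX2, is needed for the cells to become bone-forming osteoblasts. The homeodomain factors of the DLX and MSX families respond to bone morphogenetic proteins and act on the same genes. DLX3, DLX5 and DLX6 generally activate transcription, while MSX1 and MSX2 are known mainly as repressors. ATF4 is a basic leucine zipper factor of the amino acid and stress response that osteoblasts also need to make collagen and late bone proteins, and it is controlled largely at translation.

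The libraries held 15847340 and 21337246 reads over genes in knockout 1 and knockout 2, against 10096878 and 17778152 in wild type 1 and wild type 2. Tet2 had 11.6 and 9.70 FPKM in the Tet2-/- libraries, against 7.01 and 8.39 FPKM in wild type (limma, adjusted p = 0.329). Its message thus did not drop where the label says knockout, and the libraries are called knockout-labelled throughout; no direction here is taken as an effect of losing Tet2. Of 17 stromal markers in the table, 16 reached 1 FPKM in each library, and Pdgfrb, Itgb1 and Cd44 did so in all 4. The exceptions were Nes in knockout 2 (0.903 FPKM) and Lepr in the other 3. Eng, which encodes the stromal surface protein endoglin, was the marker that passed the test, with 1.53 and 1.59 FPKM against 109.9 and 102 FPKM in wild type (limma, adjusted p = 0.0237). The other markers were not uniform. Of 16 averaging 1 FPKM or more, 2 stood 2-fold above both wild-type libraries in knockout 2 and 6 below, on the log2(FPKM + 1) scale. In knockout 1 the counts were 5 and 4. Over all genes tested the shares were 5.14% and 5.87% in knockout 2, and 3.0% and 2.37% in knockout 1. The 2 knockout-labelled libraries lay far apart: the median gene differed by 0.35 between them on the log2(FPKM + 1) scale, and by 0.08 between the wild-type libraries. Summed over 10 osteoblast and osteocyte markers the level was 32.1 FPKM in knockout 1 and 1152 FPKM in knockout 2, against 33.5 and 33.6 FPKM in wild type. Most of it was Fam20c outside knockout 2, at 21.9 FPKM in knockout 1 and 20.3 and 20.1 FPKM in wild type. In knockout 2 it was mostly Alpl and Ibsp, at 501 and 435 FPKM. The near-equal sums hide single genes: Ibsp stood at 0.488 FPKM in knockout 1, against 5.17 and 4.95 FPKM, and Alpl at 8.21 FPKM, against 6.75 and 6.82 FPKM. Of the 10, 7 averaged 1 FPKM or more, and all 7 stood 2-fold above both wild-type libraries in knockout 2. Bglap, Bglap2, Dmp1 and Ifitm5, 4 of the 7, reached that average through knockout 2 alone and so had to be high there. In knockout 1 the counts were 0 above and 1 below. Dmp1, an osteocyte marker, stood at 0.205 and 40.8 FPKM, against 0.0717 and 0.0814 FPKM in wild type. Sost and Mepe, markers of mature osteocytes, were listed at 0 in all 4 libraries. In bulk RNA more cells of a type and more RNA per cell cannot be told apart, and the part of either in the values below was not tested.

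RefSeq promoter sequence (build GRCm38.p6) was at hand for 4 of the 8 genes, Runx2, Msx1, Msx2 and Atf4. It is printed for Msx1, the member whose 2 knockout-labelled libraries lay closest, and for Atf4, the most abundant member, because these stretches hold no exon annotated in GENCODE M21. Each line gives the 250 bases before the RefSeq start of the gene, 5′ to 3′ on the gene's own strand, for Msx1 at chr5:37824586-37824835 (minus strand) and for Atf4 at chr15:80254934-80255183 (plus strand). Capitals mark matches on either strand to CCAAT (the CCAAT box) or GGGCGG (the GC box bound by SP family factors).
Msx1: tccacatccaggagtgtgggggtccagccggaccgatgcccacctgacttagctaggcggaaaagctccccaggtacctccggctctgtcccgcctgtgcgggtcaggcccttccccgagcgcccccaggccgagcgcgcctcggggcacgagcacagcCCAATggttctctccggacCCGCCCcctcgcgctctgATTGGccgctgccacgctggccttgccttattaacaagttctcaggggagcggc
Atf4: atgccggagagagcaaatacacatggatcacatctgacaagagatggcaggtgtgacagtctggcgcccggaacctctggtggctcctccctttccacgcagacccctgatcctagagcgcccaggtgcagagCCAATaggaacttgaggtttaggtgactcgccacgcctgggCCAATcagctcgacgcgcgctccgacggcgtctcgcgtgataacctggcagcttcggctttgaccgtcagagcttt
The Msx1 stretch held 1 GC box, 72 bases before the start, and CCAAT boxes 91 and 54 bases before it. The Atf4 stretch held no GC box, and its CCAAT boxes began 117 and 76 bases before the start. Of 32851 promoters of the same length 32.7% held a GC box and 33.8% a CCAAT box. TGTGGT, the core letters of RUNX binding, was searched too and occurred among the 4 genes in Runx2 alone, 80 bases before the start, and in 14.0% of all promoters. TAATTA, a homeodomain core, occurred in Msx2 alone, 187 bases before the start, and in 4.84% of all promoters, while TGATGNAA, the composite site of ATF4 and CEBP factors, was in none of the 4 windows and in 3.45% of all promoters. These are matches of letters and show no binding.

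In knockout 2, 5 of the 8 genes exceeded each wild-type library by 2-fold or more on the log2(FPKM + 1) scale, namely Sp7, Dlx6, Dlx5, Dlx3 and Runx2, and 1, Msx2, stood 2-fold or more below each. Over all 12344 genes tested the shares were 5.14% above and 5.87% below. All 8 genes passed the filter of a mean of 1 FPKM that defines the genes tested, but Dlx3, Dlx5 and Dlx6 did so through knockout 2 alone and therefore had to be high there. In knockout 1 none of the 8 stood 2-fold above both wild-type libraries, where 3.0% of all genes did, and 1, Sp7, stood 2-fold below both, where 2.37% did. The median difference of the 8 genes from the wild-type mean was -0.02 in knockout 1 and 1.66 in knockout 2, beside 0.03 in each for all genes tested. The knockout 2 median is raised by Dlx3, Dlx5 and Dlx6, which the filter let in only through that library. Adding 0.1 in place of 1 to each FPKM brought in Msx1, for 6 genes above in knockout 2, and gave 2 above and 2 below in knockout 1. The shares over all genes were not counted at that setting, so these counts have no background beside them. No member passed the test between the groups in limma (adjusted p under 0.05), which 0.0162% of all genes did, 0.00810% higher and 0.00810% lower. Msx1 and Msx2, 2 members, had an unadjusted p under 0.05, by limma and by voom on whole reads. Of the 12344 genes tested, 2114 had one by limma and 2044 by voom, so such a p was common here. Voom passed no member either. Without knockout 1 all 8 members passed in limma (7 higher, 1 lower), as did 60.1% of all genes, and without knockout 2 there were 3 (Msx1 higher, Sp7 and Msx2 lower), where 46.9% of all genes passed. Each time the spread was taken from the wild-type pair. The median wild-type gap of the 8 genes was 0.04, so the 2 wild-type libraries hardly differed in them.

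**Figure D1:**
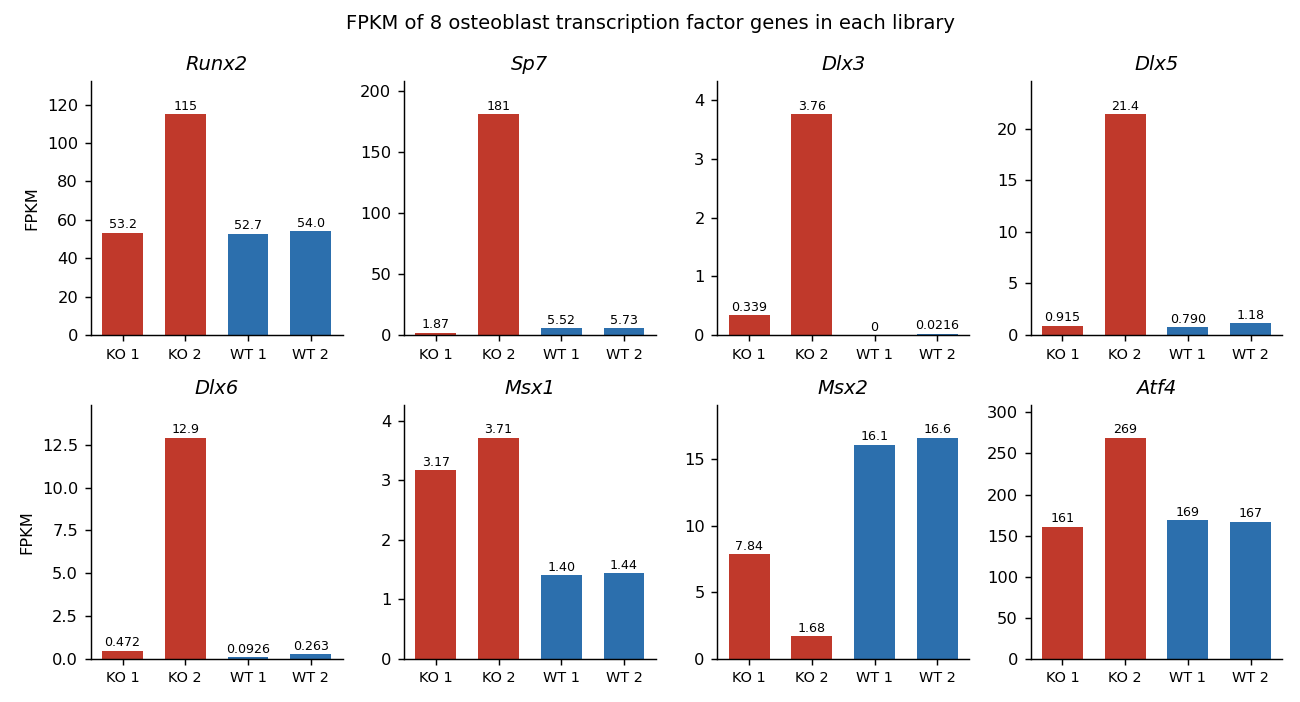
FPKM of each of the 8 genes (vertical axes, each from 0 and each on its own scale) in knockout 1 and knockout 2 (red) and wild type 1 and wild type 2 (blue), 1 bar per library. Sp7, Dlx3, Dlx5 and Dlx6 are high in knockout 2 alone, Msx1 is higher in both knockout-labelled libraries and Msx2 is lower in both.

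Runx2, the factor that starts the osteoblast programme, stood at 53.2 and 115 FPKM in knockout 1 and knockout 2, against 52.7 and 54.0 FPKM in wild type. Knockout 1 lay between the wild-type libraries, and knockout 2 lay 2.15 times above their mean. The values rest on 1883 and 5458 reads, against 1188 and 2142 reads. The difference of the groups was 0.54 on the log2 scale (SE 0.40, limma, adjusted p = 0.526). Runx2 (ENSMUSG00000039153) covers chromosome 17 from 44495987 to 44814797 on the minus strand (GRCm38). Supt3 on the other strand overlaps this span, which also holds 3 antisense transcripts. Of these, Runx2os1 shares 519 exon bases with Runx2, and it stood at 0.717 and 0.769 FPKM in the knockout-labelled libraries, against 0.625 and 0.781 FPKM in wild type. Runx2os1 held 9 and 13 reads, against 5 and 11. Whether the counting used strand is not given in the sources used here, and these counts cannot show how reads in the shared bases were assigned.

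Sp7, the zinc finger factor that acts after RUNX2, varied most of the 8 genes. It stood at 1.87 FPKM in knockout 1 and 181 FPKM in knockout 2, against 5.52 and 5.73 FPKM in wild type. Knockout 1 thus lay at 0.332 of the wild-type mean and knockout 2 at 32.1 times it, on opposite sides of a pair of wild-type libraries that nearly coincided. The reads were 86 and 11201, against 162 and 296. Among all 41029 genes Sp7 ranked 11184 in knockout 1 and 485 in knockout 2, against 8995 and 8960 in wild type. Only 33 of the 12344 genes tested (0.267%) lay 2-fold or more over wild type in knockout 2 and 2-fold or more under it in knockout 1, and Sp7 was 1 of them. The groups overlapped, and the difference did not pass (log2 1.78, SE 2.12, limma, adjusted p = 0.683). Sp7 (ENSMUSG00000060284) lies on chromosome 15 from 102356606 to 102367182, minus strand. Its neighbours varied far less. Aaas, a nuclear pore gene 5.8 kb away, stood at 43.9 and 46.2 FPKM in the knockout-labelled libraries, against 51.2 and 45.1 FPKM in wild type. Sp1, a family member 39.0 kb to the other side, stood at 64.7 and 67.6 FPKM, against 53.5 and 55.0 FPKM.

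The balance of the pair differed between libraries. Sp7 stood at 0.0351 of the FPKM of Runx2 in knockout 1 and at 1.58 times it in knockout 2, against 0.105 and 0.106 in wild type. Such ratios of levels depend on the gene lengths the authors used. The smallest lengths that give whole reads are 2233 bases for Runx2, whose exons in GENCODE M21 cover 8837 bases, and 2906 bases for Sp7, with 3398 bases of exon. The lengths actually used may differ. The length is the same in every library and does not touch the comparison of libraries.

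The Dlx genes encode homeodomain factors that lie in pairs on the chromosome. Dlx5, an activator of osteoblast genes, stood at 0.915 FPKM in knockout 1 and 21.4 FPKM in knockout 2, against 0.790 and 1.18 FPKM in wild type. Its partner Dlx6 stood at 0.472 and 12.9 FPKM, against 0.0926 and 0.263 FPKM. Both genes were low in 3 libraries and high in knockout 2, where Dlx5 lay 21.7 times above the wild-type mean. The wild-type value of Dlx6 rests on 1 and 5 reads, so no fold against it is given, while between the knockout-labelled libraries (8 and 295 reads) it was 27.4-fold higher in knockout 2. For Dlx5 the reads were 20 and 631, against 11 and 29.

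Dlx3, a homeodomain factor of bone, tooth and skin, was at the edge of detection outside knockout 2. It stood at 0.339 and 3.76 FPKM in knockout 1 and knockout 2, against 0 and 0.0216 FPKM in wild type. That is 14 and 209 reads against 0 and 1, where 3 reads would be 0.114 FPKM in wild type 1, the limit that a count of 0 allows for counting error alone. Without knockout 2 the means of Dlx3, Dlx5 and Dlx6 were 0.120, 0.963 and 0.276 FPKM, all under the filter. Their group differences were log2 1.32 (SE 0.68) and 1.95 (SE 1.17), and that of Dlx5 was 1.73 (SE 1.27). None passed (limma, adjusted p = 0.392, 0.448 and 0.525 in that order).

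Dlx5 (ENSMUSG00000029755, minus strand, 6877805 to 6882085) and Dlx6 (ENSMUSG00000029754, plus strand, 6863334 to 6868568) lie 9.2 kb apart on chromosome 6. The antisense transcript Dlx6os1 runs across Dlx6 and ends short of Dlx5. It stood at 0.181 and 2.63 FPKM in the knockout-labelled libraries, against 0.0875 and 0.174 FPKM in wild type. It shares no exon base with Dlx6 in GENCODE M21, and like both genes it was highest in knockout 2. The next protein-coding genes on either side varied less. Sem1, a proteasome subunit gene 284.7 kb away, stood at 52.9 and 72.9 FPKM, against 61.9 and 67.3 FPKM, and Sdhaf3, an assembly factor of respiratory complex II 73.9 kb beyond Dlx5, at 2.48 and 3.95 FPKM, against 3.33 and 3.55 FPKM.

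The neighbouring partner of Dlx3 was low in every library. Dlx3 (ENSMUSG00000001510) lies on chromosome 11 from 95120119 to 95125296, 15.2 kb from Dlx4. Dlx4 stood at 0.358 and 0.169 FPKM in the knockout-labelled libraries, against 0.0511 and 0.174 FPKM in wild type, from at most 11 reads in a library. The third pair, named here after its values were seen, was split. Dlx1 stood at 1.43 and 4.06 FPKM, against 2.30 and 1.75 FPKM, highest in knockout 2. Dlx2 stood at 3.38 and 0.847 FPKM, against 1.79 and 2.40 FPKM, lowest in knockout 2. Summed over all 6 Dlx genes the level was 6.89 and 43.2 FPKM, against 5.02 and 5.79 FPKM.

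Msx1, a homeodomain repressor that keeps progenitors undifferentiated in several tissues, was the member with the closest pair of knockout-labelled libraries. Msx1 had 3.17 and 3.71 FPKM in them, against 1.40 and 1.44 FPKM in wild type, without overlap. On the log2 scale the groups differed by 0.87 (SE 0.19; limma, adjusted p = 0.23), short of the threshold. The reads were 96 and 151, against 27 and 49. Msx1 (ENSMUSG00000048450) lies on chromosome 5 from 37820485 to 37824583, minus strand.

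Msx2, the related repressor that is active in skull growth and early osteoblasts, stood on the other side of wild type. It had 7.84 and 1.68 FPKM in the knockout-labelled libraries, against 16.1 and 16.6 FPKM in wild type. Both lay below wild type, knockout 1 at 0.481 and knockout 2 at 0.103 of the wild-type mean. The reads were 250 and 72, against 326 and 592. The difference of -1.83 (SE 0.62) did not pass (limma, adjusted p = 0.277). Msx2 (ENSMUSG00000021469) lies on chromosome 13 from 53466884 to 53473074, minus strand. Its neighbour Sptlc1, a gene of sphingolipid synthesis 89.5 kb away, stood at 21.9 and 18.1 FPKM, against 29.0 and 29.5 FPKM.

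The ratio of the levels of Msx2 to Msx1 was 2.47 in knockout 1 and 0.452 in knockout 2, against 11.5 in each wild-type library. Msx2 was thus the more abundant of the pair in 3 libraries and the less abundant in knockout 2. Msx1, Dlx3 and Dlx6, 3 members, exceeded wild type without overlap between the groups, and Msx2, 1 member, stood below it without overlap. Over all genes tested 29.4% lay above, 24.8% below and 54.2% on either side, so 4 of 8 is close to the share of all genes.

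Atf4, the stress response factor, was the most abundant member in every library. It stood at 161 and 269 FPKM in knockout 1 and knockout 2, against 169 and 167 FPKM in wild type, and ranked 599 and 269 among all genes, against 594 and 612. Knockout 2 lay 1.60 times above the wild-type mean and knockout 1 lay at 0.960 of it, just below both. The group difference was 0.31 on the log2 scale (SE 0.28, limma, adjusted p = 0.597). Atf4 (ENSMUSG00000042406) lies on chromosome 15 from 80255184 to 80257541, plus strand. Mief1, a mitochondrial fission gene 1.8 kb away, stood at 11.6 and 10.2 FPKM, against 10.8 and 9.63 FPKM, and Rps19bp1, 3.1 kb to the other side, at 25.6 and 17.8 FPKM, against 26.7 and 24.5 FPKM.

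**Figure D2:**
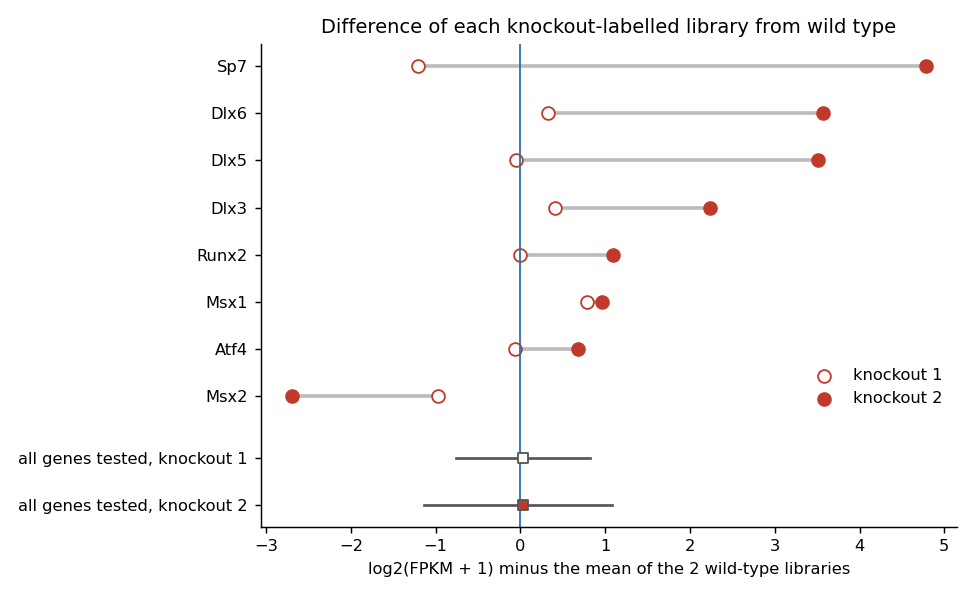
Difference of knockout 1 (open circles) and knockout 2 (filled circles) from the mean of the 2 wild-type libraries on the log2(FPKM + 1) scale (horizontal axis) for each gene, with the median (square) and the range from percentile 5 to percentile 95 (line) of all 12344 genes tested. Sp7 runs from -1.21 to 4.78, Msx2 from -0.97 to -2.69, and the 2 circles of Msx1 nearly meet.

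The gap between the 2 knockout-labelled libraries was 5.99 for Sp7 on the log2(FPKM + 1) scale, and 0.0648% of all genes tested had a gap as large. It was 3.55 for Dlx5 (0.697% of genes as large) and 3.24 for Dlx6 (0.972%). Dlx3 and Msx2 followed at 1.83 and 1.72 (4.19% and 4.78%), then Runx2 at 1.09 (10.7%) and Atf4 at 0.73 (20.6%). For Msx1 the gap was 0.17, and 72.9% of genes had one as large. Dlx3, Dlx5 and Dlx6 passed the filter through knockout 2 alone, so the filter itself favoured a wide gap in them. In the wild-type libraries the largest gaps were those of Dlx5 and Dlx6, at 0.29 and 0.21, both genes with few reads there. The other 6 had wild-type gaps of 0.02 to 0.05.

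**Figure D3:**
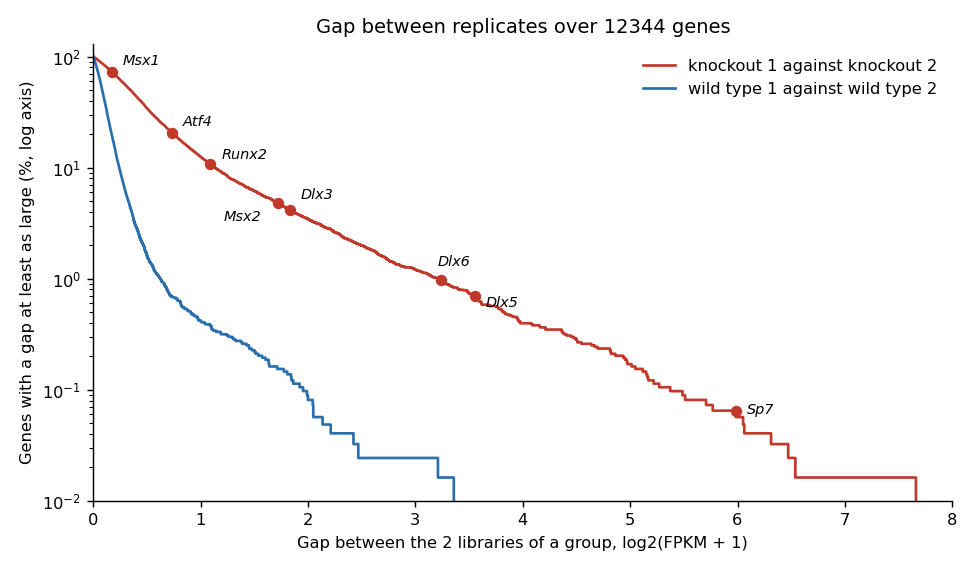
Percentage of genes tested (vertical log axis) whose gap between the 2 libraries of a group is at least the value on the horizontal axis, in log2(FPKM + 1), for knockout 1 against knockout 2 (red) and wild type 1 against wild type 2 (blue), with the 8 genes as red points. The red curve lies far above the blue one, with median gaps of 0.35 and 0.08, and Sp7, Dlx5 and Dlx6 sit in the last 1% of genes. Dlx3, Dlx5 and Dlx6 passed the filter through knockout 2 alone, which favoured a wide gap.

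Around these 8 genes, 8 lists of related regulators and targets were examined, and no gene in them passed the test in either direction in limma. Their counts of genes 2-fold apart from both wild-type libraries are to be read beside the shares over all genes, 5.14% above and 5.87% below in knockout 2 and 3.0% above and 2.37% below in knockout 1. Of 19 family relatives 13 had a mean of at least 1 FPKM, and their median difference was 0.11 in knockout 1 and 0.35 in knockout 2. Runx1, a blood and cartilage factor of the Runt family, stood at 16.7 and 8.29 FPKM, against 18.1 and 20.7 FPKM. Runx3, the third Runt factor, stood at 17.5 and 43.1 FPKM, against 30.5 and 30.5 FPKM, low in knockout 1 and high in knockout 2 like Sp7 but by less. Runx2 was 3.18 and 13.8 times as abundant as Runx1, against 2.91 and 2.61 times in wild type. The transcripts of Runx2 share 263 bases at 85.171% identity with a Runx3 transcript, and apart from the antisense Runx2os1 the same search of GENCODE M21 found no other near copy of a member. Atf3, a stress factor related to ATF4, stood at 5.46 and 23.0 FPKM, against 16.7 and 14.3 FPKM, and Atf6, a sensor of unfolded protein, at 24.1 and 51.4 FPKM, against 21.9 and 22.4 FPKM.

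Of 28 tested partners and modifiers of RUNX2, 1 stood 2-fold above and 1 stood 2-fold below both wild-type libraries in knockout 2, near the shares over all genes. In knockout 1, 0 stood above and 2, Twist1 and Hes1, stood below, where 3.0% and 2.37% of all genes did. Cbfb, which encodes the DNA-binding partner of RUNX2, stood at 102 and 186 FPKM, against 90.9 and 96.2 FPKM, in step with Runx2 itself: the ratio of Runx2 to Cbfb was 0.520 and 0.617, against 0.579 and 0.561. Twist1, which blocks the DNA-binding domain of RUNX2, stood at 30.8 and 63.8 FPKM, against 67.9 and 70.7 FPKM, low in knockout 1. Hey1, a Notch target that represses RUNX2, stood at 0.201 and 7.14 FPKM, against 0.158 and 0.359 FPKM. It was the 1 above, and it passed the filter through knockout 2 alone and so had to be high there. Hes1, another Notch target, was below wild type in both, at 62.4 and 73.7 FPKM against 169 and 194 FPKM (log2 -1.40, SE 0.15, limma, adjusted p = 0.151).

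Other transcription factors of bone-forming cells were divided. Of 32 tested, 9 stood 2-fold above both wild-type libraries in knockout 2 and 3 stood below, while in knockout 1 the counts were 1 and 4. Of the 9, Alx4 and Gli1 (2 genes) passed the filter through knockout 2 alone, which fixed their place among them. Mef2c, a factor of osteocytes and growing cartilage, had the pattern of Sp7, at 4.23 and 146 FPKM against 13.3 and 13.4 FPKM. Tcf7, a Wnt pathway factor, stood at 2.93 and 72.0 FPKM, against 3.34 and 2.59 FPKM, and the homeobox gene Alx4 at 0.0820 and 11.6 FPKM, against 0.0322 and 0.101 FPKM. Gli2, a Hedgehog pathway factor, was higher in both, at 11.0 and 3.50 FPKM against 0.190 and 0.287 FPKM (log2 2.57, SE 0.53, limma, adjusted p = 0.229).

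Genes reported downstream of RUNX2 and SP7 had the widest median gap between the knockout-labelled libraries among these 8 lists, at 2.63. Of 28 tested, 19 stood 2-fold above both wild-type libraries in knockout 2 and 2 stood below, and in knockout 1 the counts were 4 and 3. Of the 19, 8 passed the filter through knockout 2 alone and so had to be high there, namely Bglap, Bglap2, Bglap3, Dmp1, Fgfr3, Ifitm5, Panx3 and Pth1r. Panx3, a channel gene of the osteoblast lineage, stood at 0.323 and 122 FPKM, against 0.0634 and 0.216 FPKM, and Omd, which encodes the bone proteoglycan osteomodulin, at 2.15 and 637 FPKM, against 6.62 and 9.0 FPKM. Ibsp, which encodes bone sialoprotein, stood at 0.488 and 435 FPKM, against 5.17 and 4.95 FPKM, and Alpl, the alkaline phosphatase gene of mineralising cells, at 8.21 and 501 FPKM, against 6.75 and 6.82 FPKM. The 2 that stood below in knockout 2 were Vdr, the vitamin D receptor gene, at 59.8 and 8.81 FPKM against 38.0 and 40.2 FPKM, and the adhesion gene Cadm1, at 42.6 and 2.75 FPKM against 11.0 and 10.7 FPKM. Mmp13, a collagenase gene and RUNX2 target, was highest in knockout 1, at 75.5 and 20.4 FPKM against 14.4 and 15.2 FPKM. These 3 were picked after their values were seen.

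Of 38 tested targets of ATF4 in the amino acid response, 13 stood 2-fold above both wild-type libraries in knockout 2, where 5.14% of all genes did, and 1 stood below, where 5.87% did. In knockout 1, 2 stood above and 6 below, where 3.0% and 2.37% of all genes did. None of these targets passed the filter through 1 knockout-labelled library alone. The median difference was 0.68 in knockout 2 and -0.22 in knockout 1. Trib3, a pseudokinase gene, stood at 9.56 and 109.8 FPKM, against 23.9 and 22.2 FPKM, and Vldlr, a lipoprotein receptor gene, at 5.15 and 68.4 FPKM, against 13.1 and 14.1 FPKM. Cth, which makes cysteine, stood at 9.01 and 37.7 FPKM, against 4.19 and 4.17 FPKM, and Gdf15, a stress cytokine gene, was highest in knockout 1, at 19.7 and 5.77 FPKM, against 3.99 and 4.46 FPKM. Asns, the asparagine synthetase gene, was picked after its values were seen and stood at 130.4 and 387 FPKM, against 151 and 154 FPKM. Among 14 regulators of ATF4, the kinases and factors of translation initiation, none stood 2-fold apart in knockout 2 and 1 stood below in knockout 1. This was Eif2b2, a subunit of a translation initiation factor, at 32.7 and 45.8 FPKM against 70.4 and 70.0 FPKM. Another subunit gene, Eif2b1, stood at 36.6 and 47.6 FPKM, against 33.6 and 36.6 FPKM. Eif2ak2, a kinase activated by double-stranded RNA, stood at 47.4 and 33.4 FPKM, against 27.8 and 28.4 FPKM, and Ppp1r15b, a phosphatase subunit that opposes such kinases, at 34.3 and 38.1 FPKM, against 23.9 and 25.1 FPKM.

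Transcription factors of the other stromal fates held none that stood 2-fold above in knockout 2. Of 16 tested, 4 stood 2-fold below both wild-type libraries there, and 3 stood above in knockout 1. Ebf2, 1 of these 3, passed the filter through knockout 1 alone and so had to be high there. Ebf2, a factor of fat and marrow stromal precursors, stood at 5.58 FPKM in knockout 1 and was listed at 0 in knockout 2, against 0.0276 and 0.0470 FPKM in wild type. Ebf3, its relative, stood at 4.08 and 0.533 FPKM, against 4.04 and 4.22 FPKM. Cebpa, a fat cell factor, stood at 8.28 and 3.72 FPKM, against 2.36 and 1.83 FPKM. Egr1, an early response factor also used in tendon, stood at 84.6 and 44.1 FPKM, against 129.9 and 131 FPKM. Of the overlapping non-coding transcripts only Dlx1as reached a mean of 1 FPKM, at 1.84 and 3.30 FPKM against 0.849 and 0.868 FPKM, from 17 and 41 reads against 5 and 9.

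**Figure D4:**
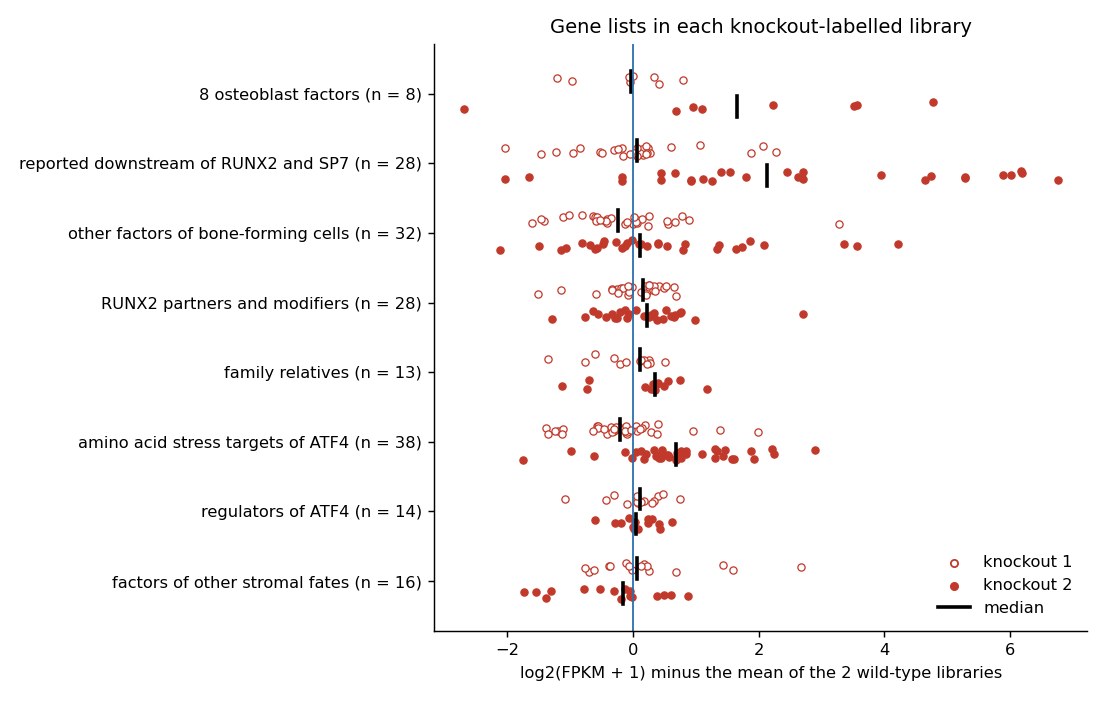
Difference of each tested gene from the mean of the 2 wild-type libraries on the log2(FPKM + 1) scale (horizontal axis) in knockout 1 (open points) and knockout 2 (filled points), by gene list, with the median of each as a black bar. The medians of the 8 factors are -0.02 and 1.66, and Dlx3, Dlx5 and Dlx6 among them passed the filter through knockout 2 alone. The filled points of the genes reported downstream of RUNX2 and SP7 reach farthest to the right. Of those 28 genes, 8 passed the filter through knockout 2 alone.

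Markers of other cell types gave values beside these. Haematopoietic markers summed to 59.2 and 108 FPKM in the knockout-labelled libraries, against 94.8 and 90.9 FPKM in wild type, with 5 of 16 at 0 in each knockout-labelled library and 7 and 5 in wild type. Adipocyte markers summed to 195 and 38.8 FPKM, against 7.57 and 7.69 FPKM, nearly all of it Lpl (lipoprotein lipase) and Fabp4, while the fat hormone gene Adipoq stayed at or below 0.1 FPKM. Chondrocyte markers summed to 9.26 and 10.8 FPKM, against 8.57 and 7.93 FPKM, and endothelial markers to 1.96 and 0.353 FPKM, against 0.662 and 0.502 FPKM. Muscle markers summed to 2059 and 1076 FPKM, against 1943 and 1838 FPKM, mostly Acta2, a smooth muscle actin gene that cultured stromal cells express, and Myod1, Myog and Ckm were at 0 throughout. Osteoclast markers summed to 26.4 and 84.4 FPKM, against 37.8 and 36.9 FPKM, nearly all Ctsk. Cathepsin K, the product of Ctsk, is a protease best known from osteoclasts, and the other osteoclast markers reached at most 2.68 FPKM. The haematopoietic and osteoclast sums were lowest in knockout 1 and highest in knockout 2, but rested mostly on Lyz2 and Ctsk. Single markers were divided. Lyz2, C1qa and Ctsk had this order. Csf1r, at 4.45 and 8.39 FPKM against 3.65 and 4.19 FPKM, and Acp5, at 1.78 and 0.169 FPKM against 1.86 and 2.68 FPKM, did not. The part of these cell types in the results was not tested.

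For each member the 3 genes of at least 5 FPKM on average with the most alike pattern were taken, by the distance between their 4 values on the log2(FPKM + 1) scale after subtraction of the wild-type mean. With 4 libraries such likeness is a description only. Nearest to Sp7 were the matrix gene Tnn (0.515 and 53.1 FPKM, against 1.17 and 1.24 FPKM, distance 0.69), the ephrin receptor gene Epha3 and the collagen gene Col8a2. Nearest to Runx2 were Nceh1, Lrrfip2 and Crnde, at distances of 0.04 to 0.05, and nearest to Atf4 was Spice1 (0.04), followed by Mafg and Iars, the last an isoleucine tRNA synthetase gene of the ATF4 target list at 120.3 and 199 FPKM, against 121 and 123 FPKM. Nearest to Dlx5 were 4930486L24Rik (0.12), Plxnc1 and Itga10. Nearest to Dlx6 were Sgms2 (0.36), 4930486L24Rik (0.37) and then Ifitm5, a bone cell membrane gene (0.446 and 19.6 FPKM, against 0.280 and 0.397 FPKM, distance 0.44). Dlx3 lay nearest to Unc93b1 (0.11; 6.24 and 25.2 FPKM, against 4.81 and 4.35 FPKM), Gxylt2 and Fabp4. The added 1 FPKM shrinks the differences of genes as low as Dlx3, so likeness on this scale need not mean a like fold. Msx1 lay nearest to Slit2, a guidance factor gene (68.6 and 79.8 FPKM, against 39.2 and 41.1 FPKM, distance 0.04), with B230354K17Rik and Uty next. Msx2 lay nearest to the metallothionein gene Mt2 (83.4 and 29.9 FPKM, against 186 and 187 FPKM, distance 0.21), with Ifi47 and Cd24a next.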

How the data were processed

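The deposited table gives the authors' FPKM for every gene in 4 libraries; per the submitters' processing notes, TopHat2 2.0.12 and Bowtie2 2.2.3, HTSeq 0.6.1 and the build mm10 were used; how gene lengths were set is not given in the sources used here. All 4 columns were mapped to libraries by title. Names and coordinates came from GENCODE M21 (GRCm38, the assembly of mm10). Since the deposited FPKM are quotients of whole numbers, library totals and reads per gene could be recovered for all 25309 genes above 0 as the smallest whole set (lower bounds). Intervals and floors from reads cover counting error only. Groups were compared by limma (version 3.58.1, under R 4.3.3). The values were log2(FPKM + 1) of the 12344 genes averaging 1 FPKM or more. The test was two-sided, with a mean-variance trend and Benjamini-Hochberg adjustment over all of them. The fit was also run on simulated data with the same spread in all 4 libraries. The knockout-labelled libraries here differed far more than the wild-type ones, so that run does not show how the test performs on these data. An exact permutation test of 2 against 2 cannot go below p = 0.33. The members and lists were chosen with earlier results of these data known, and the promoter motifs after the sequences were seen. A log2 difference is the knockout-labelled value less the wild-type one; the pseudocount shrinks it for low genes. Genes are named by rule: all members, up to 4 per list with the largest difference in either knockout-labelled library, and 3 most alike genes per member; others are marked, apart from chromosomal neighbours and markers. Alternatives were other pseudocounts, filters and scalings, voom on reads, a replicate block and leaving out each library.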

Additional observations from a re-analysis of the deposited data

How the results depend on the processing

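Across the pseudocounts, filters, trimmed mean and quantile scaling, voom and the replicate block, no member passed, and each tested member kept the direction of its group difference; a mean of at least 5 FPKM left only 5 of the 8 to test. Over all genes 2 passed, against 1 with a pseudocount of 0.1 or 0.01, 0 by limma-voom on reads (2044 at an unadjusted p under 0.05) and 0 with the replicate block in limma (1328 at an unadjusted p under 0.05). The replicate numbers only name the samples: replicate 1 minus replicate 2 correlated at 0.006 between the groups across genes. Leaving out each library in turn gave 0 to 7415 genes and 0 to 8 members past the threshold. Without knockout 1 all 8 passed (7 higher, 1 lower), without knockout 2 there were 5789 genes and 3 members (Msx1 higher, Msx2 and Sp7 lower), and without either wild-type library there were none (274 and 312 genes at an unadjusted p under 0.05, limma). With 1 knockout-labelled library left, its spread is taken from the 2 wild-type libraries, which differed far less. The group difference turned without knockout 2 for 4 members, so that leaving out each library gave ranges of -0.0029 to 1.09 for Runx2, -1.21 to 4.78 for Sp7, -0.046 to 3.50 for Dlx5 and -0.058 to 0.68 for Atf4. The count of members 2-fold above and of those 2-fold below both wild-type libraries in knockout 1 was 2 each with a pseudocount of 0.1 or 0.01, against 0 and 1; in knockout 2 it was 6 above, against 5. These library counts under other settings were added after the data were seen, and the matching shares over all genes were not counted. Depth limits Dlx3 and Dlx6, which had at most 14 reads in every library but knockout 2.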
